A study of Homo sapiens with 4 samples.

Results

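The levels of 10 myeloid lineage transcription factors were examined in MV4-11 cells upon CEBPG knockdown. The members were SPI1, RUNX1, MYB, GFI1, KLF4, KLF2, GATA2, ZEB2, LMO2 and EGR2, taken by gene symbol from the table of RefSeq transcripts. All 10 had values, in 26 transcripts, out of 16490 genes and 28581 transcripts with a value in the series. MV4-11 is a human acute myeloid leukemia (AML) cell line with an MLL-AF4 fusion and an internal tandem duplication of FLT3. RNA-seq had been carried out on 4 libraries, of which 2 came from control cells (sh-NC, titled NC in the labels) with CEBPG present and 2 from cells with sh-CEBPG#3, a short hairpin RNA against CEBPG. The hairpins against CEBPG were delivered with a lentiviral vector and infected cells were selected with puromycin, while the control construct is not described in the sources used here. CEBPG was targeted in the sequenced cells by 1 hairpin, so an effect of the hairpin and an effect of lower CEBPG cannot be told apart. Whether a group's 2 libraries stem from independent infections or cultures is not stated in the labels or methods, and p-values then measure the spread between these libraries, which may be technical.

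Myeloid cells arise from progenitors through a network of transcription factors that act by dose. SPI1 (PU.1) is required for the myeloid lineages and drives monocyte genes at high levels, whereas MYB, GATA2, RUNX1 and LMO2 act mainly in stem and progenitor cells. GFI1 is a repressor that favours granulocytes over monocytes, and EGR2, with its cofactors of the NAB family, works against it. KLF4 and KLF2 are zinc finger factors of monocytes and quiescent leukocytes, and ZEB2 is a zinc finger repressor needed for myeloid and dendritic cell development. In AML, RUNX1, GATA2 and the SPI1 program are recurrently altered, and MYB sustains leukemias with MLL fusions.

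Values were FPKM, that is, fragment numbers scaled by transcript length and by the mapped reads of the library, so levels of different genes can be compared. FPKM of all transcripts of a gene were summed per library. Log2(FPKM + 1) values were compared with limma over the 12142 genes whose mean was 0.5 FPKM or more, with Benjamini-Hochberg adjustment over all of them. Because of the added 1 FPKM, the fold change of a low gene is understated. The libraries held between 364353 and 389766 FPKM in total and between 11089 and 11198 genes at 1 FPKM or more. The FPKM values carry no counts, so the depth is unknown. Pearson's r across genes was at least 0.993 within a group and at most 0.964 between groups. CEBPG itself had 30.4 and 33.6 FPKM in the control libraries against 19.2 and 17.1 FPKM in the knockdown libraries. The targeted gene was thus lower in both libraries labelled as knockdown, with 56.8% of the control level remaining.

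The labelled cell type was checked against marker genes. Primary granule genes of myeloid precursors were abundant, with a sum over 5 of 5 genes of 4104 and 4370 FPKM in sh-NC against 8804 and 8287 FPKM in sh-CEBPG#3. All 5 of these rose at an adjusted p under 0.05 in limma, beside 18.5% of all genes tested, among them PRTN3 and ELANE, which encode neutrophil serine proteases. FLT3, the receptor that is mutated in these cells, had at least 62.8 FPKM in each library. Of the 10 monocyte and macrophage markers, 9 had values, and their sum was 625 and 679 FPKM in sh-NC against 3260 and 3108 FPKM in sh-CEBPG#3. LYZ, the lysozyme gene, made up most of that sum. Of the 5 monocyte and macrophage markers that could be tested, LYZ, CD68 and CSF1R rose, while CD86 and ITGAM did not pass. CD14, the monocyte coreceptor for lipopolysaccharide, stood at 0.187 and 0 FPKM in sh-NC and at 1.09 and 0.697 FPKM in sh-CEBPG#3. A defining monocyte marker was thus close to absent in sh-NC and higher, though still low, in sh-CEBPG#3. CD163, FCN1 and VCAN were also higher in both knockdown libraries, at no more than 0.244 FPKM in any library. Like CD14, they were too low to be tested. KIT, a receptor of early progenitors, had 0.187 and 0.121 FPKM in sh-NC against 0 and 0.0235 FPKM in sh-CEBPG#3 and was not tested. Among the 4 progenitor markers looked up, 2 had values, namely FLT3 and KIT. B cell markers summed to at most 3.24 FPKM in every library, and the 2 that were tested moved in opposite directions. PAX5, a B cell transcription factor, fell (-0.37). It did not pass with no filter on low values or with the most abundant transcript of each gene. CD79A, the other B cell marker tested, had 0.763 and 0.707 FPKM in sh-NC against 0.978 and 1.33 FPKM in sh-CEBPG#3. It was higher without overlap but did not pass (0.31). Megakaryocyte markers summed to 0.758 and 0.542 FPKM in sh-NC against 2.25 and 2.21 FPKM in sh-CEBPG#3. GP9, a platelet glycoprotein gene, made up most of that sum and rose (log2 fold change 1.04, adjusted p = 0.000149 in limma). ITGA2B, the other megakaryocyte marker with a value, was lower without overlap but too low to be tested. It had 0.138 and 0.0843 FPKM in sh-NC against 0.0749 and 0.0576 FPKM in sh-CEBPG#3. COL1A1, a collagen gene of fibroblasts and the 1 gene with a value among the epithelial and fibroblast markers, had at most 0.0781 FPKM. Of the 4 T cell and the 4 erythroid markers looked up, 0 had a value. The part of these changes in the levels of the 10 factors was not tested. In bulk RNA, fewer cells of a type and less RNA per cell cannot be told apart.

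The levels of the factors differed widely in control cells. SPI1 and MYB were the most abundant, with means of 120 ± 7.77 and 119 ± 4.82 FPKM (SD, n = 2), and their ranges overlapped. Both lay above 96.9% of the genes tested. GFI1 (56.3 ± 3.27 FPKM), LMO2 (50.3 ± 2.09 FPKM), RUNX1 (33.4 ± 0.204 FPKM) and ZEB2 (28.7 ± 1.22 FPKM) followed, each with a range apart from its neighbour (SD, n = 2). GATA2 (9.80 ± 1.25 FPKM), KLF4 (7.03 ± 0.604 FPKM) and KLF2 (4.55 ± 0.297 FPKM) were lower still (SD, n = 2). EGR2 was close to absent, at 0.151 ± 0.0672 FPKM (SD, n = 2). In sh-CEBPG#3 cells the order differed in 2 places. LMO2 stood above GFI1, with ranges that did not overlap, and GATA2 fell from rank 7 to rank 9, below KLF4 and KLF2.

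**Figure D1:**
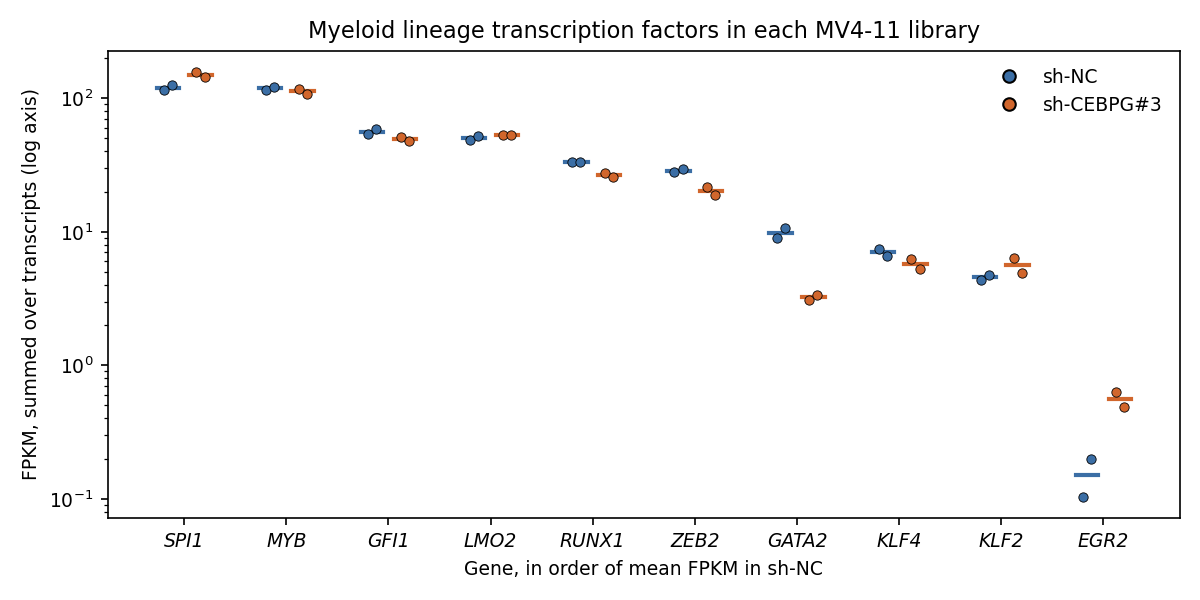
FPKM of each factor (log axis) in the 2 sh-NC libraries (blue) and the 2 sh-CEBPG#3 libraries (orange), with bars at the group means and genes in order of their sh-NC mean. GATA2 has the widest gap among the factors above 1 FPKM, from 9.80 to 3.22 FPKM, while for MYB and for LMO2 the libraries of both groups lie close together.

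Among the 9 factors tested, 1 rose and 3 fell at an adjusted p under 0.05 in limma. SPI1 rose, and GATA2, ZEB2 and RUNX1 fell, while MYB, GFI1, LMO2, KLF4 and KLF2 did not pass. These 4 of 9 genes stand beside 42.2% of all genes tested that passed in either direction (18.5% higher and 23.8% lower), so the share of factors that passed was close to that of genes at large. The median log2 fold change was -0.19 over the 9 factors and -0.038 over all genes tested. The study's threshold was a fold change beyond 2 in either direction with an unadjusted p under 0.05, applied there to DESeq2 results. Applied here to limma fold changes of log2(FPKM + 1), it was passed by GATA2 and by no other factor tested. This stands beside 3.41% of all genes tested in either direction and 1.05% that were lower. The numbers of genes that passed are thus not comparable with those of the study. Groups did not overlap for 8 of the 9 factors, beside 71.7% of all genes tested. EGR2 was below the limit of 0.5 FPKM and was not tested. An exact two-sided permutation test of 2 against 2 libraries cannot give a p below 0.333, so the calls rest on the variance that limma shares between genes.

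**Figure D2:**
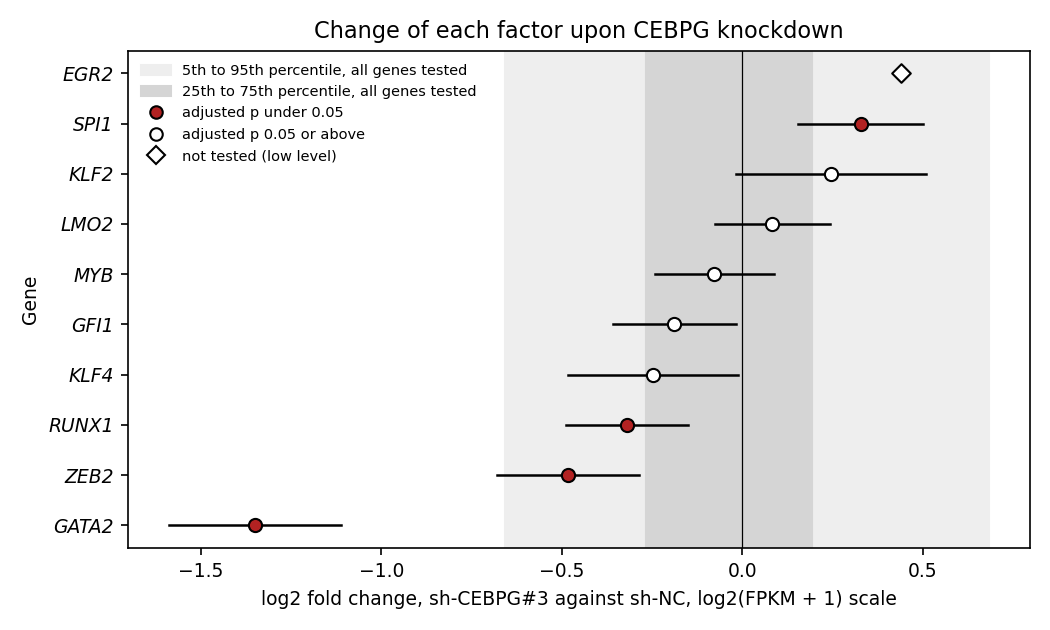
Log2 fold change of each factor with its 95% interval from limma (n = 2 libraries per group). Filled points passed an adjusted p under 0.05, open points did not, the diamond is EGR2, which was not tested, and the bands mark the middle of the distribution of all 12142 genes tested. GATA2 at -1.35 lies far outside the 5th to 95th percentile of all genes (-0.66 to 0.68), and the other 9 factors lie within it.

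GATA2, a zinc finger factor that maintains hematopoietic stem and progenitor cells, had the largest change among the factors. The gene lies on chromosome 3 from 128479422 to 128493201 on GRCh38. Its sum was 8.92 and 10.7 FPKM in the control libraries against 3.08 and 3.37 FPKM in the knockdown libraries. Both knockdown libraries were far below both control libraries, and the mean was 32.9% of that of the controls. The log2 fold change was -1.35 (95% interval -1.59 to -1.11, adjusted p = 8.68e-06 in limma), and 0.321% of the genes tested had a lower value. The call held in each of the 12 alternative settings, with log2 fold changes from -1.60 to -0.99. The deposited table divides GATA2 over 2 transcripts, and this division was not stable between the control libraries. NM_001145661 had 8.58 and 5.75 FPKM in sh-NC against 2.93 and 3.17 FPKM in sh-CEBPG#3. NM_032638 had 0.339 and 4.94 FPKM in sh-NC against 0.146 and 0.199 FPKM in sh-CEBPG#3. Both transcripts were lower in the knockdown libraries without overlap, but neither passed by itself (adjusted p = 0.0664 and adjusted p = 0.358 in limma over 18624 transcripts, of which 8.24% passed, while groups did not overlap for 59.5%). When NM_001145661 stood for the gene in the fit over genes, it did pass (-0.99, adjusted p = 0.0241 in limma over 11992 genes).

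The 2 annotated start regions of GATA2 are shown because this factor changed most. Each window runs from 250 bases before to 50 bases after a start in RefSeq on GRCh38.p14, on the minus strand, at chr3:128493152-128493451 for the outer start and chr3:128488481-128488780 for the inner start. The windows were searched on both strands for TTGCGCAA, the palindrome bound by C/EBP proteins, TGATGCAA, the composite element of C/EBP and ATF factors, and GAGGAAGT, a sequence bound by SPI1. None of these letters occurred in either window, so nothing is in capitals.
GATA2 outer start: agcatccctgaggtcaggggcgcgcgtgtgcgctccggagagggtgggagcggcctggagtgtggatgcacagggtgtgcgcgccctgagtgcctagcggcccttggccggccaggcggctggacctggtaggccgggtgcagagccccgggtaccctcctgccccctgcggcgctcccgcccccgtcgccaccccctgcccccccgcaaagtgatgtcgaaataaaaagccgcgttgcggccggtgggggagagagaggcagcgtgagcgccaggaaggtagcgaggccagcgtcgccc
GATA2 inner start: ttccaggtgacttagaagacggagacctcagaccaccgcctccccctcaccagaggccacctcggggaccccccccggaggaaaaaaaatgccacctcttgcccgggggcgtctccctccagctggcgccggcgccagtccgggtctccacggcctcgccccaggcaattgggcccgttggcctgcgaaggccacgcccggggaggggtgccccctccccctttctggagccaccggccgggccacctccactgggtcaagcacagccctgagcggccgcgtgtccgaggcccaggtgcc

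ZEB2 fell less. This repressor, on chromosome 2 from 144384081 to 144520119, had 27.9 and 29.6 FPKM in the control libraries against 21.8 and 18.9 FPKM in the knockdown libraries. The groups did not overlap, and 70.7% of the control level remained (log2 fold change -0.48, 95% interval -0.68 to -0.29, adjusted p = 0.00176 in limma). Its transcripts differed in their estimates. NM_014795, the most abundant, had 17.0 and 18.9 FPKM in sh-NC against 18.4 and 14.1 FPKM in sh-CEBPG#3, which overlap, with a log2 fold change of -0.14 (95% interval -0.55 to 0.27, adjusted p = 0.585 in limma). NM_001171653 had 5.48 and 4.76 FPKM in sh-NC and was listed at 0 and 1.96 FPKM in sh-CEBPG#3 (adjusted p = 0.131 in limma). The non-coding NR_033258 had 5.39 and 5.96 FPKM against 3.41 and 2.77 FPKM (adjusted p = 0.0621). NM_014795 made up 62.4% of the gene in sh-NC and 79.6% in sh-CEBPG#3 on average, so most of the difference in the sum lay in the minor transcripts, neither of which passed by itself. With the most abundant transcript in place of the sum, ZEB2 no longer passed (-0.14, adjusted p = 0.497 in limma).

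RUNX1, the DNA-binding partner of CBFB in core binding factor, fell as a gene, and NM_001001890 alone of its 3 transcripts passed by itself. Whether the isoforms changed differently was not tested. The gene spans chromosome 21 from 34787801 to 35049302. Its sum was 33.3 and 33.6 FPKM in the control libraries against 27.6 and 25.7 FPKM in the knockdown libraries, without overlap. The log2 fold change was -0.32 (95% interval -0.49 to -0.15, adjusted p = 0.00727 in limma), with 79.6% of the control level remaining. Without sh-CEBPG#3 replicate 2 the decrease no longer passed (-0.27, adjusted p = 0.0804 in limma). NM_001001890, which encodes RUNX1b, carried the decrease, with 30.2 and 27.9 FPKM in sh-NC against 20.7 and 21.0 FPKM in sh-CEBPG#3 (log2 fold change -0.46, adjusted p = 0.0436 in limma over transcripts). NM_001122607, which encodes RUNX1a, a short form without the transactivation domain, had 0.180 and 0.141 FPKM in sh-NC against 0.884 and 1.48 FPKM in sh-CEBPG#3. Both knockdown libraries were above both controls, but this change did not pass (log2 fold change 0.90, 95% interval 0.27 to 1.53, adjusted p = 0.0952 in limma). RUNX1a made up 0.540% and 0.419% of RUNX1 in the controls against 3.21% and 5.77% upon knockdown. NM_001754, which encodes RUNX1c and starts at the distal promoter, overlapped between the groups, with 2.90 and 5.58 FPKM in sh-NC against 5.96 and 3.21 FPKM in sh-CEBPG#3.

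The window around the RUNX1 start in the RefSeq table is shown because RUNX1b, the isoform that passed as lower, is transcribed from the proximal promoter. It lies inside the gene at chr21:34888650-34888949 on the minus strand of GRCh38.p14, and none of the 3 motifs occurred in it. It is rich in CpG, with 40 CpG dinucleotides against a median of 14 over 35116 windows of the same length.
RUNX1 start: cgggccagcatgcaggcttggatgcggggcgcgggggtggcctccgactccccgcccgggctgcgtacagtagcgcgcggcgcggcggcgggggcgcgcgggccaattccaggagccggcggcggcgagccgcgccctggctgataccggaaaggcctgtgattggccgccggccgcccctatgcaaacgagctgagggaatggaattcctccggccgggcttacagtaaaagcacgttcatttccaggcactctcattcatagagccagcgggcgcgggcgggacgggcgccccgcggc

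SPI1 was the 1 factor that rose. This ETS factor, on chromosome 11 from 47354860 to 47378547, had 114 and 125 FPKM in the control libraries against 157 and 144 FPKM in the knockdown libraries. The groups did not overlap, and the knockdown mean was 126% of the control mean (log2 fold change 0.33, 95% interval 0.15 to 0.50, adjusted p = 0.00732 in limma). Both listed transcripts were higher in both knockdown libraries. NM_001080547 had 40.3 and 43.1 FPKM in sh-NC against 61.4 and 56.0 FPKM in sh-CEBPG#3 (log2 fold change 0.48, adjusted p = 0.0438 in limma over transcripts). NM_003120 had 74.1 and 82.2 FPKM in sh-NC against 95.9 and 88.0 FPKM in sh-CEBPG#3 (0.23, adjusted p = 0.173). The increase of SPI1 no longer passed without sh-CEBPG#3 replicate 1 (0.26, adjusted p = 0.120 in limma) or when NM_003120 stood for the gene (adjusted p = 0.107).

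MYB, the progenitor factor on which MLL-fusion leukemias depend, had 116 and 122 FPKM in the control libraries against 118 and 108 FPKM in the knockdown libraries. The groups overlapped, and the log2 fold change was -0.078 (95% interval -0.24 to 0.087, adjusted p = 0.427 in limma), an interval that reaches neither a 2-fold increase nor a 2-fold decrease. With quantile normalization MYB passed as lower (-0.18, adjusted p = 0.00955 in limma). Of its 6 transcripts, NM_005375 made up 86.5% of the sum in sh-NC and 87.8% in sh-CEBPG#3 on average. NM_001130172 varied more within groups than between them, with 20.1 and 1.59 FPKM in sh-NC against 1.17 and 14.7 FPKM in sh-CEBPG#3, while the gene sums stayed close. LMO2, a LIM-only bridge between GATA and basic helix-loop-helix factors, had 48.8 and 51.8 FPKM in sh-NC against 53.4 and 53.2 FPKM in sh-CEBPG#3. Its log2 fold change was 0.083 (95% interval -0.077 to 0.24, adjusted p = 0.382 in limma), and it turned to -0.11 with the most abundant transcript, NM_001142316, in place of the sum.

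GFI1, the repressor of monocyte genes, had 54.0 and 58.6 FPKM in the control libraries against 50.9 and 47.7 FPKM in the knockdown libraries. The knockdown values were lower without overlap, but the difference did not pass (log2 fold change -0.19, 95% interval -0.36 to -0.017, adjusted p = 0.0741 in limma). It did pass when the libraries were brought to equal totals (-0.21, adjusted p = 0.00616 in limma) or to equal quantiles (-0.22, adjusted p = 0.00522). Its 2 major transcripts differed in direction, though neither passed. NM_001127215 had 28.7 and 33.2 FPKM in sh-NC against 20.7 and 24.3 FPKM in sh-CEBPG#3 (log2 fold change -0.44, adjusted p = 0.106 in limma over transcripts). NM_001127216 had 20.3 and 19.98 FPKM in sh-NC against 24.6 and 22.1 FPKM in sh-CEBPG#3 (0.21, adjusted p = 0.201).

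Of the 13 windows that the RefSeq table holds for 8 of the factors, 1 contained the C/EBP palindrome, and it belongs to GFI1. The table has 3 starts for GFI1, and SPI1 and LMO2 have no entry. The palindrome occurred in 0.151% of the 35116 windows in the table, the composite element in 0.866% and the SPI1 sequence in 2.59%, and the 13 windows held neither of the latter 2. The GFI1 window lies on the minus strand at chr1:92486050-92486349 of GRCh38.p14, between the outer and the inner of the 3 starts. The palindrome, in capitals, begins at position -142 from that start. It is shown because it is the 1 match among the factors, and a match of letters is not evidence of binding.
GFI1 middle start: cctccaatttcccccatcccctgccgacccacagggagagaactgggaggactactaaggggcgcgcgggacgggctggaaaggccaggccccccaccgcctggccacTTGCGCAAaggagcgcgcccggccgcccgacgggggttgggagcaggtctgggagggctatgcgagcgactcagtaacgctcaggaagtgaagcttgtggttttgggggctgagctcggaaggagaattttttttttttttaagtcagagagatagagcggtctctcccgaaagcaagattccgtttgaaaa

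KLF4, a zinc finger factor that promotes monocyte differentiation, had 7.45 and 6.60 FPKM in the control libraries against 6.25 and 5.28 FPKM in the knockdown libraries. Its log2 fold change of -0.25 did not pass (95% interval -0.48 to -0.013, adjusted p = 0.0847 in limma). KLF2, a related factor of quiescent leukocytes, had 4.34 and 4.76 FPKM in sh-NC against 6.34 and 4.90 FPKM in sh-CEBPG#3. Its log2 fold change of 0.25 did not pass either (95% interval -0.018 to 0.51, adjusted p = 0.122 in limma), and it rested on sh-CEBPG#3 replicate 1, without which it was 0.088. The levels of KLF4 and KLF2 had ranges apart in sh-NC and overlapping ranges in sh-CEBPG#3. EGR2 had 0.104 and 0.199 FPKM in sh-NC against 0.631 and 0.490 FPKM in sh-CEBPG#3, higher in both knockdown libraries but below 1 FPKM in all 4. The difference on the log2(FPKM + 1) scale was 0.44, and with no filter on low values it passed (adjusted p = 0.0202 in limma over 16490 genes).

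The wider network was examined through lists of same-family genes, cofactors, other myeloid factors and known target genes. Of 15 same-family genes tested, 2 rose and 2 fell, beside 18.5% and 23.8% of all genes. Leaving out a library brought the higher genes to 1 (without sh-NC replicate 1 or sh-CEBPG#3 replicate 1) and the lower genes to 1 (without sh-NC replicate 2 or either sh-CEBPG#3 library), and a fit that blocked on the replicate numbers (replicate block) left 1 lower gene. MYBL2, the MYB relative of dividing cells and the most abundant of the list, had 54.0 and 58.0 FPKM in sh-NC against 25.6 and 25.2 FPKM in sh-CEBPG#3. It fell by 1.11 on the log2 scale (adjusted p = 3.27e-06 in limma), whereas MYB did not pass. ZEB1, the relative of ZEB2, rose from 2.00 and 2.00 FPKM to 4.61 and 3.73 FPKM (log2 fold change 0.78, adjusted p = 0.000518 in limma), the opposite direction to ZEB2. KLF7 rose (0.35) and KLF13 fell (-0.27), with adjusted p of 0.0389 and 0.0305 in limma. EGR1, which is induced by growth signals like EGR2, had between 2.95 and 3.18 FPKM in all 4 libraries and overlapping groups.

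Of 17 cofactors and partners tested, 2 rose and 7 fell, and these 52.9% stand beside 42.2% of all genes in either direction (18.5% higher and 23.8% lower). JUN, an AP-1 subunit that acts as a coactivator of SPI1, had the largest change, from 1.58 and 1.81 FPKM in sh-NC to 7.69 and 7.44 FPKM in sh-CEBPG#3 (log2 fold change 1.67, adjusted p = 1.61e-06 in limma). LYL1, a basic helix-loop-helix partner in complexes with LMO2, rose (0.62), and TCF3, the E protein of the same complexes, fell (-0.81). LDB1, which dimerizes those complexes, had overlapping groups, with 27.4 and 31.5 FPKM in sh-NC against 30.4 and 29.8 FPKM in sh-CEBPG#3. CBFB, the partner of RUNX1, fell with it, from 25.5 and 26.7 FPKM to 20.3 and 18.7 FPKM (-0.40, adjusted p = 0.00276 in limma). NAB2, the corepressor of EGR factors, fell (-0.69), as did HDAC1, a histone deacetylase that GFI1 recruits and the most abundant gene of the list (-0.52). The median of the list was -0.12, beside -0.038 over all genes tested.

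Of 22 other myeloid factors tested, 6 rose and 11 fell, beside 18.5% and 23.8% of all genes, with a median of -0.20 beside -0.038 over all genes. The number that fell was 7 without sh-CEBPG#3 replicate 2 and 6 with the most abundant transcript of each gene. The 3 that changed most among those that fell were ID1, an inhibitor of basic helix-loop-helix factors (-1.13), MEIS1, a homeobox factor of MLL-rearranged leukemia (-0.87), and MYC (-0.75). CEBPD rose from 21.1 and 24.1 FPKM to 39.5 and 38.6 FPKM (0.76), and CEBPB from 15.3 and 14.9 FPKM to 26.2 and 24.2 FPKM (0.70). Both are C/EBP factors of inflammation and macrophages, and the adjusted p of all 5 was at most 9.92e-05 in limma. CEBPA, the most abundant C/EBP factor of the list, fell from 254 and 273 FPKM to 216 and 213 FPKM (-0.29, adjusted p = 0.00752 in limma). CEBPE did not pass (-0.17). Thus both directions were found among these factors.

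Known target genes were counted in the same way, and each count below stands beside the 18.5% of all genes that rose and the 23.8% that fell. Of 10 genes activated by SPI1 that were tested, 6 rose and none fell, with a median of 0.65, while without sh-NC replicate 2 or under the replicate block 1 fell. LYZ had 567 and 610 FPKM in sh-NC against 3126 and 2982 FPKM in sh-CEBPG#3 (log2 fold change 2.37). On the same scale CD68, a lysosomal protein of macrophages, rose by 1.14 and ITGB2, the integrin beta 2 chain, by 0.88. CSF1R, the receptor for macrophage colony-stimulating factor, rose by 0.80. CYBB, the catalytic subunit of the phagocyte oxidase, had 0.377 and 0.537 FPKM in sh-NC against 2.30 and 2.03 FPKM in sh-CEBPG#3 (1.12). It counts among the 6, but its sh-NC mean of 0.457 FPKM lay below the limit of 0.5 FPKM. CYBB was thus tested only because of its level upon knockdown, and no conclusion is drawn from its estimate. ITGAM and CSF3R, also on the list, had log2 fold changes of 0.088 and 0.11 and did not pass. Of 5 genes activated by MYB that were tested, the granule genes PRTN3 (1.38), ELANE (1.04) and MPO (0.62) rose and MYC fell. Of the KLF2 and KLF4 targets, 2 were tested, and CDKN1A, the inhibitor of cyclin-dependent kinases, rose (0.94), while 2 genes rose, of 3 then tested, when sh-NC replicate 1 or sh-NC replicate 2 was left out. Of 7 tested genes repressed by GFI1, 2 rose (CDKN1A and CSF1R) and 4 fell (ID1, MEIS1, ID2 and HOXA9). The lists share genes. CSF1R, CDKN1A, ID1, ID2, MEIS1, HOXA9, MYC and EGR1 stand on more than 1 of them, PRTN3, ELANE and MPO are also granule markers, and LYZ, CD68, CSF1R and ITGAM are also monocyte and macrophage markers. The changes of target genes were measured in the same 4 libraries as the factors, and whether they go through the factors was not tested.

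**Figure D3:**
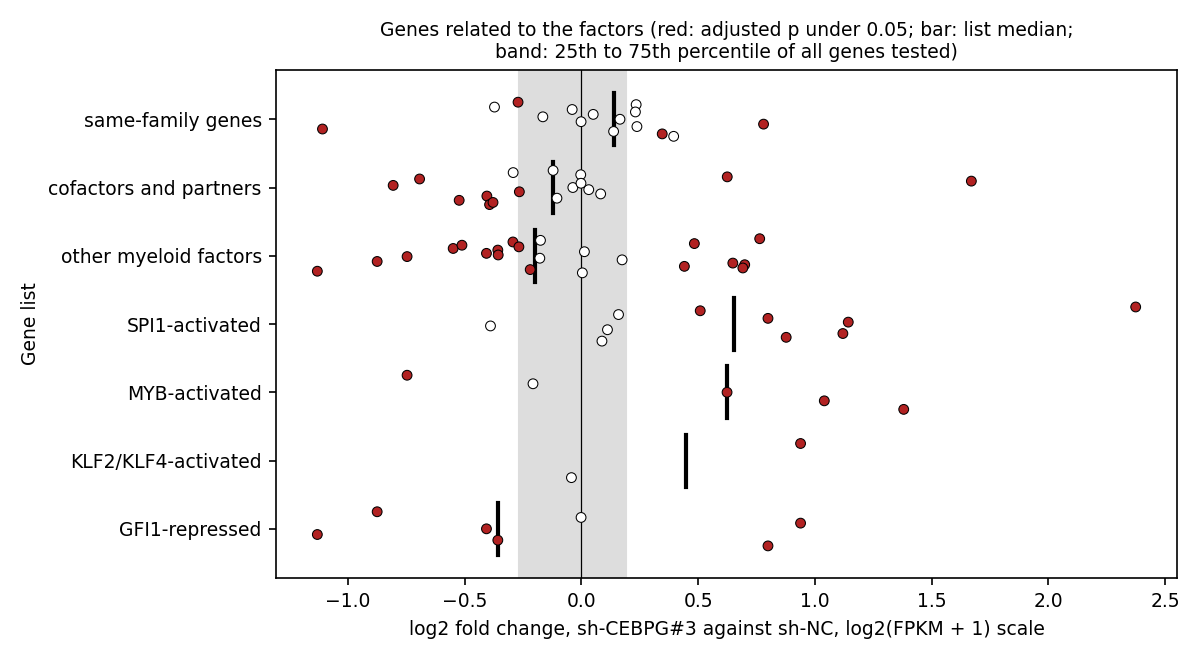
Log2 fold change of each tested gene in 7 lists of genes related to the factors, filled where the adjusted p in limma was under 0.05, with bars at the list medians and a band from the 25th to the 75th percentile of all genes tested. The medians of SPI1-activated genes (0.65), MYB-activated genes (0.62) and the 2 KLF targets (0.45) lie above the band and that of GFI1-repressed genes (-0.36) below it.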

How the data were processed

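Libraries had been made from 1 µg of total RNA of MV4-11 cells with an Illumina TruSeq kit. According to the paper's methods and the submitters' processing notes, reads were filtered and mapped with HISAT2 2.0.5 to hg38, and the authors deposited FPKM values, 1 per RefSeq transcript and library. The annotation and the program behind the FPKM values are not given in the sources used here. Of 28780 listed transcripts, 199 had no value and were left out.

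FPKM were summed by gene symbol and log2(FPKM + 1) values were fitted with limma 3.58.1 in R 4.3.3 (lmFit, eBayes with a trend, no block), since a count test could not be used. Whole reads could not be recovered, since among 565 genes with 1 transcript and values below 0.06 FPKM in both sh-NC libraries, 1.42% shared the commonest ratio between these libraries. On simulated data with 12142 genes, the fit recovered 200 of 200 planted changes, with 5 false calls. The noise was an assumed one, and far fewer genes were changed than the 42.2% that passed in these data. The false calls therefore give no error rate for these data. The planted changes were larger than those of SPI1, RUNX1 and ZEB2, and low genes received none. Small changes and low genes were therefore not covered. Samples were grouped by their titles. Members and lists were chosen with earlier results of these data known. Of each list, up to 5 genes that passed with the largest change, and the most abundant family member and partner, are named. CBFB, LDB1, EGR1, ITGAM, CSF3R, HOXA9, FLT3, CD14, CD86, PAX5, GP9, COL1A1 and KIT were named after their values had been seen. So were CD79A, ITGA2B, CEBPA, CEBPE, CD163, FCN1 and VCAN. Promoter windows and gene positions come from RefSeq tables of GRCh38.p14, the same build as hg38, read with Python 3.11.15. Protein features were not analysed here. As alternatives, the pseudocount was set to 0.1 or 0.01, the filter was dropped or raised to 1 FPKM, and the fit was repeated with equal totals, quantile normalization, the replicate number as a block, the most abundant transcript of each gene, or a library left out.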

Additional observations from a re-analysis of the deposited data

How the results depend on the processing

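Of the 9 factors tested, GATA2 kept its call in all 12 alternatives, ZEB2 and RUNX1 in 11 and SPI1 in 10. With the most abundant transcript in place of the sum, SPI1 (0.23) and ZEB2 (-0.14) no longer passed in limma, LMO2 turned from 0.083 to -0.11 without passing in either, no factor was higher (0), and the decrease of GATA2 (-0.99) fell short of a log2 change of 1, leaving 0 factors past the study's threshold. Of the factors that had not passed, GFI1 did with equal totals (-0.21) and with quantile normalization (-0.22), and MYB did with quantile normalization (-0.18), which brought the lower factors to 5. With no filter, EGR2 was tested and the higher factors were 2. With a library left out, the lone library of its group is assumed to vary like the other group. The log2 fold changes then ranged from 0.26 to 0.39 for SPI1, from -0.37 to -0.27 for RUNX1, from -0.25 to -0.13 for GFI1, from -0.35 to -0.14 for KLF4, from 0.088 to 0.40 for KLF2, from -0.14 to -0.018 for MYB and from 0.041 to 0.12 for LMO2. The number of higher factors ranged from 0 to 2. Past the threshold of 0.05, SPI1 was lost without sh-CEBPG#3 replicate 1 and RUNX1 without sh-CEBPG#3 replicate 2, while GFI1 was gained without sh-NC replicate 1, KLF4 without sh-NC replicate 2 or without sh-CEBPG#3 replicate 1, and KLF2 without sh-CEBPG#3 replicate 2. The cause was not tested. Over all genes, 2864 passed with the most abundant transcript against 5128 with the sum, and 827 and 882 were past the study's threshold with pseudocounts of 0.1 and 0.01 against 414 with 1. Of 288 counts of called genes over 12 lists with a gene tested, 31 moved by more than 1.5 times.

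The titles carry replicate numbers 1 and 2 in both groups. The deviations of libraries with the same number correlated at 0.061 over the genes tested, so the numbers were not taken as pairs. With the replicate number as a block, 1 factor was higher and 3 were lower, as without it. The block cannot move a fold change (GATA2 -1.35) in this balanced design, so p-values alone could differ. Depth could not be judged from FPKM, so counting error of the low genes, EGR2 above all, is unknown.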
